A study of Mus musculus with 6 samples.

Results

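The proteasome genes described here are the protein-coding genes of chromosomes 1 to 19 and X whose symbol begins with Psma, Psmb, Psmc, Psmd, Psme, Psmf or Psmg in the GENCODE vM21 annotation of the mouse genome build GRCm38. The rule found 50 of 21755 protein-coding genes, and peaks of open chromatin were taken where they overlapped 1 kb on each side of any annotated start site of these genes. At those start sites lay 70 peaks of 100771 in the WT list and 65 of 94499 in the KO list. One of the 50 genes, Psmc3ip, encodes a protein of meiotic recombination and is no proteasome subunit.

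Splenic regulatory T cells (Tregs) of mice aged 6 to 12 weeks were profiled by ATAC-seq, in which a transposase inserts sequencing adapters into open chromatin. The study asked what loss of the transcription factor CREB changes in Tregs. The labels give 3 libraries for each genotype, whereas the paper's methods state sequencing in duplicate. Only 1 list of peaks per genotype was analysed here. The control group, called WT, was CREBfl/fl, with floxed alleles and no Cre, and the other group, called KO, was Foxp3creCREBfl/fl, in which the Foxp3 promoter drives Cre. Both groups therefore carried the floxed alleles, and Cre itself and the deletion came together. The sample titles call the second group Foxp3_KO, whereas the labels' design names Foxp3cre and CREB-flox mice, and the latter was followed. How the libraries of a group were joined is not given in the sources used here, and with 1 list per group there was no test across mice.

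The proteasome is the barrel-shaped protease that degrades proteins marked with ubiquitin. Its core is built of rings of alpha and beta subunits, some of the beta subunits cut the substrate, and a regulatory particle of ATPases and non-ATPase subunits recognises, unfolds and feeds it in. In cells of the immune system, inducible beta subunits replace the standard catalytic ones and form the immunoproteasome, which helps to make peptides for presentation on MHC class I.

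The measure used is the pileup, the number of overlapping fragments at the summit of a peak, recovered from the fold and p of each peak. The genome background was 8.44 in the WT list and 5.09 in the KO list, so pileups are also given as times that background. All 6 Treg and T cell markers (Foxp3, Il2ra, Ctla4, Ikzf2, Cd4 and Cd3e) had a promoter peak in both lists, at 40.05 to 116 times background in WT and 42.6 to 121 times in KO. Of the markers of other blood cells, 1 of 2 of B cells, 1 of 3 of myeloid cells, 1 of 3 of CD8 T and NK cells and 2 of 3 of erythroid cells had one in each list. Their levels were 3.08 to 66.8 times background in WT and 4.72 to 75.2 times in KO, the highest being Klf1 of the erythroid list. Cd79a, Lyz2, Csf1r, Cd8a, Ncr1 and Hbb-bt had none. The part of these markers in the results was not tested. At the start of Creb1 itself the pileup was 1065 in WT and 757 in KO, a relative log2 ratio (defined below) of 0.09 (−0.05 to 0.22). Which part of the gene is floxed is not given in the sources used here, so this value does not check the deletion.

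The letters before some start sites are shown first, because words in them are counted below. Sequences are 5′ to 3′ on the strand of the gene. Capitals mark the CRE, half-site, ARE, ETS, interferon response and NRF1 words, each explained below. Other searched words stay in lower case. The first stretch lies just before the first protein-coding start site of Psmb8, an inducible catalytic beta subunit, and is shown because it holds a full CRE, the palindrome TGACGTCA that CREB binds.
Psmb8 (GRCm38, chr17:34197571-34197720, plus strand): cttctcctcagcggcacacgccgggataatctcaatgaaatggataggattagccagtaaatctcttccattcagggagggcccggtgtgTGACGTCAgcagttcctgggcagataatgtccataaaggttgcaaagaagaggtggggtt

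The next 4 come from RefSeq promoter windows on GRCm38 and show the half-site, ARE and NRF1 words whose shares are given below. Psmb6, a standard catalytic beta subunit, has 2 CRE half-sites (TGACG), and the one at −9 is also an antioxidant response element (ARE, TGACNNNGC). The same overlap stands at −47 before Psmb5, another catalytic subunit. Psma3, of the alpha ring, and Psmc4, an ATPase, hold the consensus of nuclear respiratory factor NRF1, and Psmc4 also a half-site on the other strand.
Psmb6 (chr11:70525237-70525356, plus strand): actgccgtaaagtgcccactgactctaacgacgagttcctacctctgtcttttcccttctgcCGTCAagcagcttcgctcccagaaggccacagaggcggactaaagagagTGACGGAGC
Psmb5 (chr14:54618023-54618142, minus strand): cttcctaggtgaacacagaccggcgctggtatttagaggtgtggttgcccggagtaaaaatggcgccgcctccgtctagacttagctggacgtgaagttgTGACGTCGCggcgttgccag
Psma3 (chr12:70974501-70974620, plus strand): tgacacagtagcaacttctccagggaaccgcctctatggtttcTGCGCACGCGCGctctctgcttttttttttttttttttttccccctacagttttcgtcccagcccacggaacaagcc
Psmc4 (chr7:28050133-28050272, minus strand): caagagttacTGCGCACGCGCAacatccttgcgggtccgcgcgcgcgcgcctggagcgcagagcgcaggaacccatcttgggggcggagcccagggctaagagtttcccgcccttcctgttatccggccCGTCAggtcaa

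The last 3 are shown for their pileups, from the same source. Psmd4, a ubiquitin receptor of the regulatory particle, had one of the strongest promoters, with an ETS word (CCGGAAG) and the interferon response word GAAANNGAA read on the other strand. Psme3, the nuclear PA28 activator, had a lower relative ratio, with an ETS word and a half-site. Psmd14, the deubiquitinase of the lid, had the highest relative ratio and none of the CRE, half-site, ARE, ETS, interferon or NRF1 words in this stretch.
Psmd4 (chr3:95042625-95042744, minus strand): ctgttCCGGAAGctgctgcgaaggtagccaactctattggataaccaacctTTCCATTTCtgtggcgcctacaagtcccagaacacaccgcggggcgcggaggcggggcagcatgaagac
Psme3 (chr11:101316093-101316212, plus strand): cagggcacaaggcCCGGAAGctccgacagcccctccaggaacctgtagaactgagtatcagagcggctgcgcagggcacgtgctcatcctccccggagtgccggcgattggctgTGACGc
Psmd14 (chr2:61711574-61711693, plus strand): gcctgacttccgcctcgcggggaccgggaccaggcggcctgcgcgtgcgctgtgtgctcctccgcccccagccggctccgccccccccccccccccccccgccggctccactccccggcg

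Nearly all proteasome genes had an open promoter in both groups. In each list 47 of 50 genes had a peak within 1 kb of a start site (94%), against 62.5% of all protein-coding genes in the WT list and 62% in the KO list. The 3 genes without a peak were the same in both lists. They were Psma8, an alpha subunit of the testis, Psmb11, the beta subunit of thymic cortical epithelium, and Psme2b. Respiratory chain genes had a peak for 88 of 94 genes and cytosolic ribosomal protein genes for 76 of 76, in each list.

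The promoters were of moderate to high signal. Across the 47 genes the median of the highest promoter pileup was 90.3 times background in WT and 105 times in KO, against 75.7 and 84.9 times for all protein-coding genes with a peak. This put the median gene at percentile 59.7 in WT and 62.1 in KO. In both lists 31 of 47 genes lay above the median promoter (65.96%, 95% Wilson interval 51.7 to 77.8%), yet 2 genes in WT and 1 in KO reached the top 10%. Ribosomal protein genes had higher medians, 114 and 127 times background, and respiratory chain genes near ones, 94.0 and 105 times. Wilson intervals treat genes or regions as independent of each other, and intervals of pileup ratios cover counting error only. Neither covers differences between mice.

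The strongest promoter was that of Psma5, of the alpha ring, with a pileup of 1429 in WT and 950 in KO. In the order of the WT list, Psmd5, a chaperone of base assembly, followed with 1320 and 866, and Psmd4 with 1257 and 791. In KO, Psmb9 lay above both with 873. By the highest pileup of each gene, Psmg3, a chaperone of core assembly, had the weakest, at 245 and 186. Before it came Psmd9, a base chaperone, with 404 and 290, and Psmb10, an inducible catalytic subunit, with 408 and 283, the lower of them in KO. The highest pileup of Psmb8 lies within Tap1. At its GENCODE protein-coding start Psmb8 had 378 and 146, the latter below Psmg3. In the region of its RefSeq start it had 513 and 367. Each gene's KO pileup was the smaller number, as was the KO background.

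By role, the 7 alpha ring genes with a peak had the highest median, 121 times background in WT and 134 times in KO, and ranged from 80.3 to 169 times in WT. The 6 ATPase genes followed at 110 and 128 times, then 4 activators at 93.2 and 109, 7 standard beta genes at 91.7 and 106, 3 base chaperones at 90.5 and 93.3, and 11 non-ATPase subunits at 87.6 and 96.3 times. The 4 core chaperones stood at 71.1 and 73.5 times, the 3 inducible beta genes at 70.4 and 80.4, and Psmf1, a proteasome inhibitor, at 61.1 and 69.4. Within every role of 3 or more genes the range was wide: the core chaperones spanned 29.0 to 115 times in WT and the ATPases 56.6 to 134 times. The value of the inducible beta genes is that of Psmb8, whose highest pileup lies in a coding exon of Tap1. At its GENCODE protein-coding start Psmb8 had 44.8 and 28.7 times, and with these the median would be that of Psmb10, 48.3 and 55.6 times. In the region of its RefSeq start Psmb8 had 60.8 and 72.1 times, which would then be the median. The ranges of all roles of 3 or more genes thus overlapped.

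**Figure D1:**
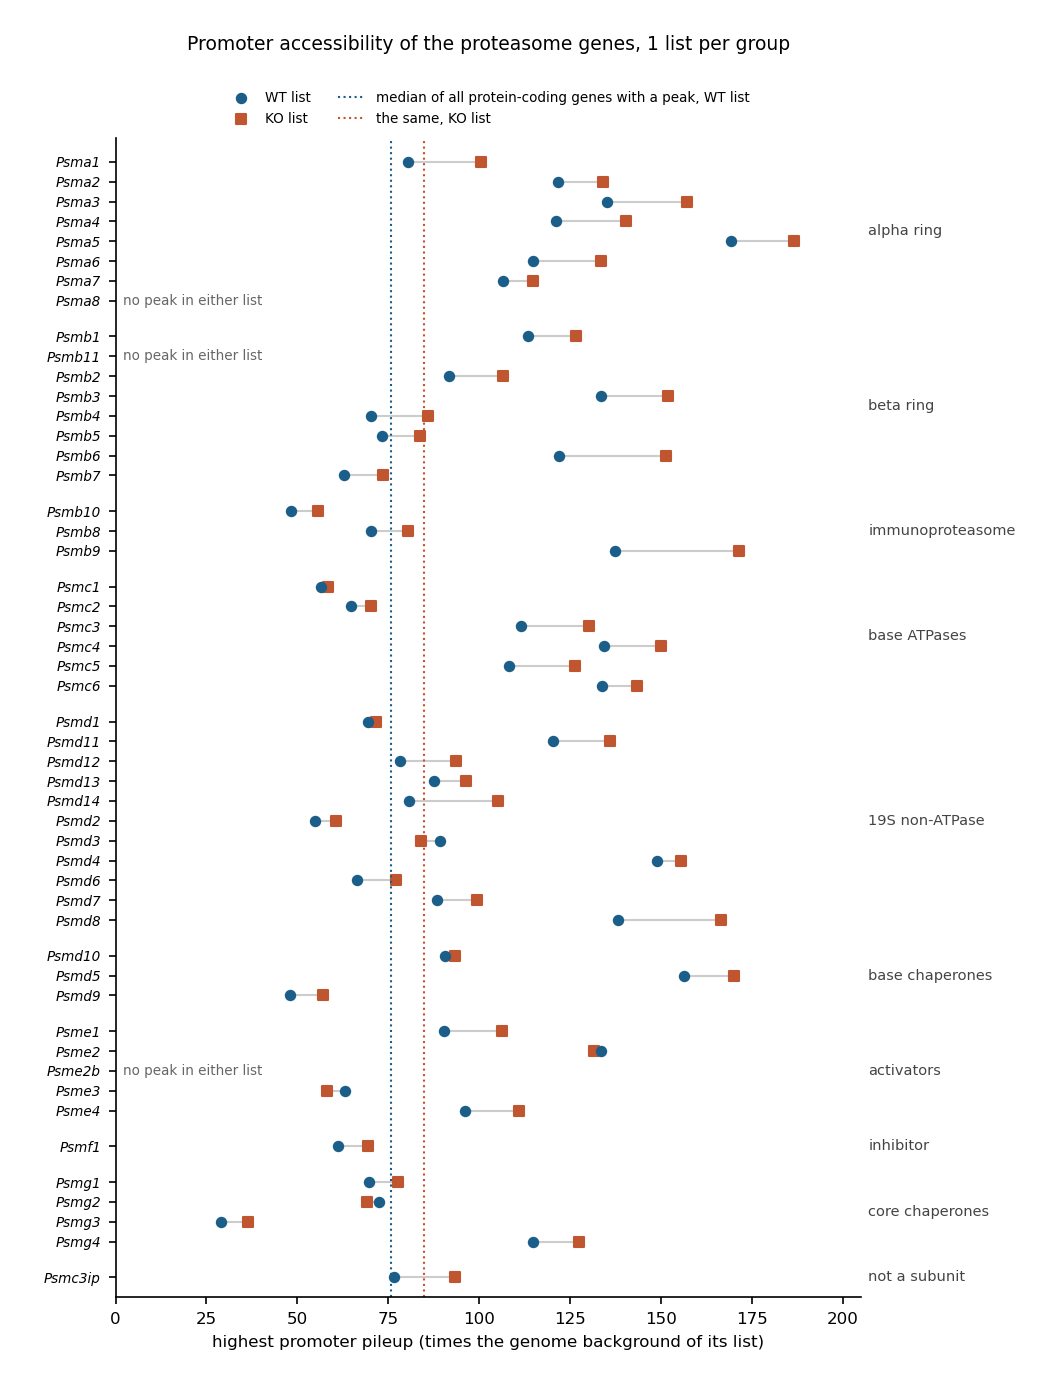
Highest promoter pileup of each of the 50 genes, in times the genome background of its list (linear axis), with circles for the WT list, squares for the KO list and dotted lines at the medians of all protein-coding genes with a peak. Psma5 lies farthest right and Psmg3 farthest left in both lists, and 3 genes have no peak; the point of Psmb8 is a region upstream of its start, within Tap1.

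Peaks sat close to the start site and were single for most genes. The median distance of the WT summit from the nearest start, in either direction, was 36 bp, against 66 bp for all protein-coding genes with a peak, and the median width was 911 bp against 888 bp. A proteasome gene had 1.49 WT peaks and 1.38 KO peaks on average, against 1.91 in both lists for all genes with a peak. A region that held a protein-coding start site itself was found for 47 of 50 genes, in 48 regions, against 56.1% of all protein-coding genes. All 48 were in both lists, as were 97.8% of such regions of all genes.

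Several promoters were shared with another gene. The main region of a gene is that of its highest pileup. Of the 47 main regions, 11 held protein-coding start sites on both strands (23.4%, 95% Wilson interval 13.6 to 37.2%). Over all protein-coding genes, 1078 of 12333 main regions did (8.74%). There a region that several genes share counts once, so the share per gene would be higher. That share was not computed, and the values do not show whether proteasome genes differ in this. The partners were Mrpl32 with Psma2, AY074887 with Psma4, Ss18l1 with Psma7, Tbp with Psmb1, Tap1 with Psmb9, Dnajc2 with Psmc2, Ftsj3 with Psmc5, Atg4a with Psmd10, Sirt3 with Psmd13, Rnf31 with Psme2 and Cep76 with Psmg2. Tap1, a transporter of peptides into the endoplasmic reticulum, thus shares its opening with an immunoproteasome subunit. Values of these 11 regions belong to both genes of the pair.

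Regions found in one list only were small, and most lay close to a peak of the other list. Joining both lists gave 72 regions at proteasome start sites, of which 58 were shared, 13 were in the WT list only and 1 in the KO list only. The 13 WT-only regions were 18.1% of the 72 (95% Wilson interval 10.9 to 28.5%), against 10.9% of all regions at protein-coding start sites. The KO-only region was 1.39% (0.246 to 7.46%), against 4.06%. None of the 14 held a protein-coding start site, which 6.67% of WT-only and 9.96% of KO-only regions of all genes did. Cytosolic ribosomal protein genes had 9 WT-only regions of 113 and respiratory chain genes 12 of 122.

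WT-only regions of core genes belonged to the structural beta subunits Psmb2 and Psmb3 and the catalytic beta subunit Psmb6. Those of the regulatory particle belonged to Psmc4, Psmd2, Psmd6, Psmd8 and Psmd14. The others belonged to the assembly chaperones Psmd9, Psmg1, Psmg2 and Psmg4, and to Psmc3ip. Pileups of the 13 ran from 30 at Psmb3 to 109 at Psmd8, with a median of 79. WT-only regions at all start sites had a median of 48. The 13 were 84 to 168 bp long. A peak of the KO list lay within 500 bp of 11 of the 13 (84.6%), at a median gap of 75 bp, against 1873 of 2607 WT-only regions at all start sites (71.8%). By annotation, 9 of the summits lay in an intron of the gene itself. Those of Psmd6 and Psmd9 lay in an exon, and those of Psmb6 and Psmd2 between genes. The single KO-only region lay in an intron of Psme3, 276 bp from its protein-coding start, with a pileup of 61, and was 412 bp from the nearest WT peak. With peaks of −log10 q of at least 10 only, the WT-only count was 7, and with 50% reciprocal overlap the KO-only count was 7.

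In the 58 shared regions accessibility relative to the background differed little between the lists. The log2 ratio of KO over WT pileup, each over its genome background, had a median of 0.15 over all shared regions of the lists, and ratios below are given relative to it. The proteasome regions had a median relative log2 ratio of 0.02 and an interquartile range of −0.04 to 0.08, against a median of 0.02 and a range of −0.10 to 0.12 for all 20357 shared regions at protein-coding start sites. Of the 58, 23 lay below the median of all shared regions (39.7%), against 45.9% of all shared promoter regions. Without centring on that median 8 lay below 0 (13.8%), against 18.5% of all, and over each peak's own background 29 lay below the median (50%), against 48.4%. The 103 regions of ribosomal protein genes and the 108 of respiratory chain genes also had medians of 0.02. In whole nuclei of many cells, fewer cells with an open region and less opening per cell cannot be told apart.

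For 6 of the 58 regions the 95% counting interval lay below the median (10.3%, Wilson interval 4.83 to 20.8%), against 6.75% of all shared regions at start sites. For 4 it lay above (6.90%, 2.71 to 16.4%), against 6.17%. Without centring, 2 of the 58 intervals lay below 0 and 30 of the 58 above, both larger shares than the 2.201% and 32.2% of all. Over each peak's own background, 2 of the 58 lay below the median and 1 of the 58 above, against 4.00% and 3.31% of all. The 2 were the Psmd9 region and the start of Psmb8 described next, and the 1 was that of Psmg3. One region passed a change of at least 2-fold and 5 counting SDs, against 0.167% of all. That region, assigned to Psmd9 by the rule, lay far from the protein-coding start of that gene, with its summit at −59697 bp from it and at −920 bp from the start of a non-coding Psmd9 transcript. The summit is in a UTR of Setd1b, a histone methyltransferase gene. It is at chr5:123168307-123168596. Its pileup was 255 in WT and 67 in KO, a relative log2 ratio of −1.35 (−1.76 to −0.95). Over each peak's own background the ratio was −0.98 (−1.40 to −0.59) and did not pass the 2-fold rule. At the protein-coding start of Psmd9 the pileups were 404 and 290, for a ratio of 0.10 (−0.12 to 0.32).

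**Figure D2:**
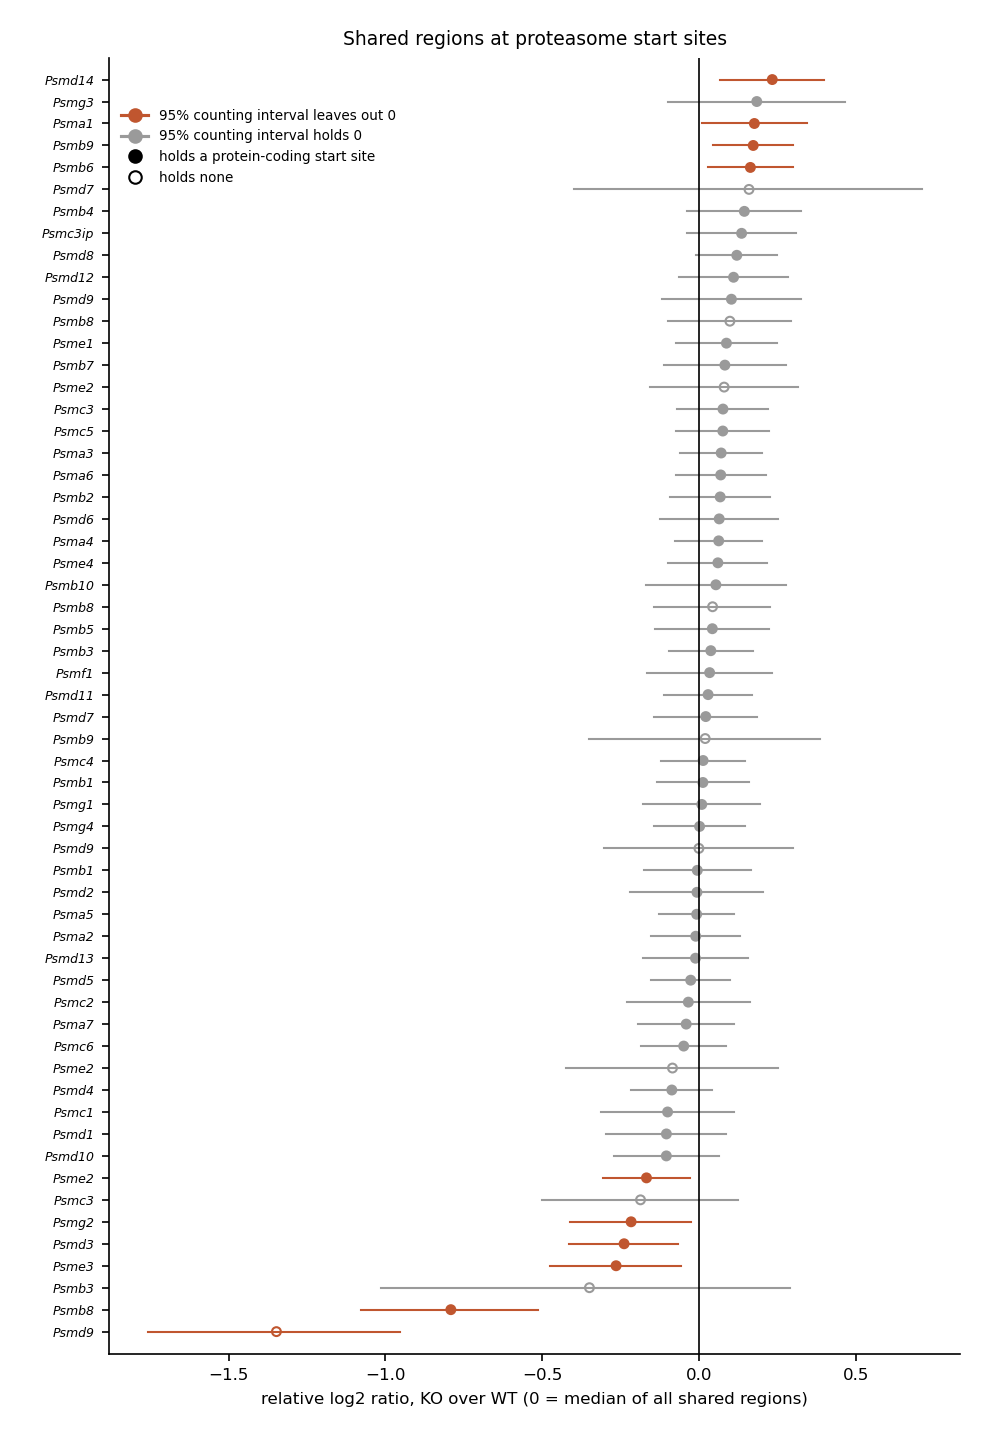
Relative log2 ratio of KO over WT pileup (x axis) for the 58 shared regions, ordered by value, 1 line per region and named by gene, with 95% exact binomial intervals that cover counting error only. The coloured lines are the 6 regions below and 4 above the median whose interval leaves out 0; open circles are regions that hold no protein-coding start site, such as that of Psmd9 at −1.35.

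At a protein-coding start of GENCODE, the lowest ratio was that of Psmb8. This region, at chr17:34197412-34197872, holds 2 protein-coding start sites of the gene, 69 bp apart. The CRE printed above begins at −60 from the first of them. Its pileup was 378 in WT and 146 in KO, which is 44.8 and 28.7 times background, with the summit at −26 bp in both lists. The relative log2 ratio was −0.79 (−1.08 to −0.51), below all but 0.671% of shared promoter regions. Among promoter regions of like signal the central 95% of ratios ran from −0.52 to 0.39.

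The intervals of the neighbouring regions lay apart from that of the GENCODE start. A region with its summit at −1040 bp, in a coding exon of Tap1, had summit pileups of 594 in WT and 409 in KO and a relative ratio of 0.04 (−0.14 to 0.23). Downstream, with its summit in a UTR of Psmb8 and 615 bp after the first protein-coding start, a region with 513 and 367 had a ratio of 0.10 (−0.10 to 0.29). The RefSeq start of Psmb8, 474 bp after the first protein-coding start of GENCODE, lies in this region. In the KO list this downstream region was split into 2 peaks. The counting interval at the GENCODE start overlaps neither of the others. Over each peak's own background the middle region stood at −0.78 (−1.06 to −0.50), and without centring at −0.64 (−0.93 to −0.36).

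**Figure D3:**
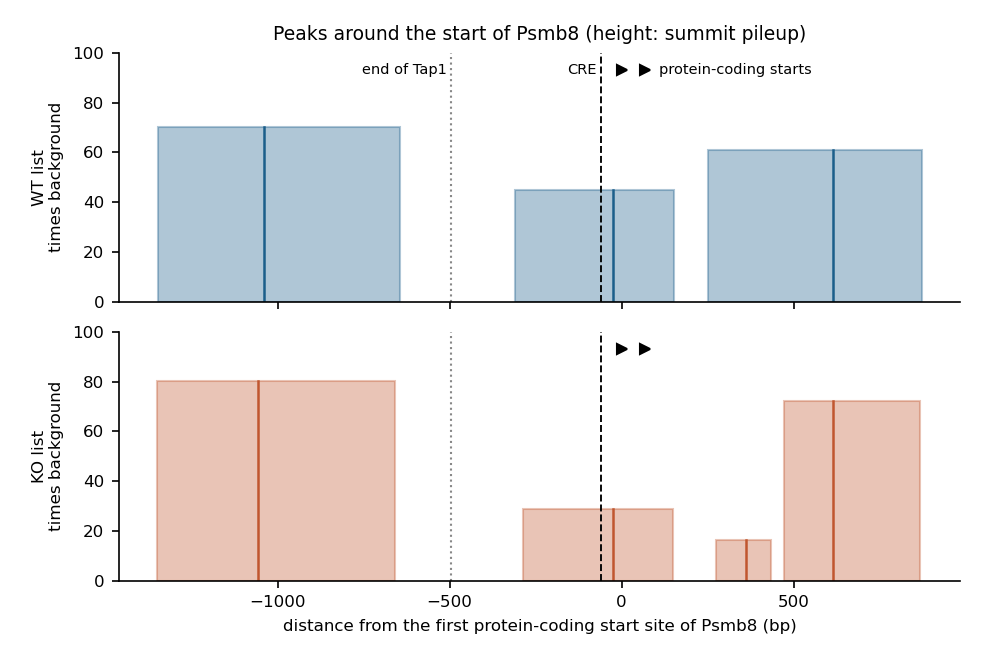
Peaks of the WT list (upper) and the KO list (lower) around Psmb8, with distance in bp from its first protein-coding start on the x axis and the height of each block at the summit pileup in times genome background; solid lines mark summits, the dashed line the CRE, the dotted line the end of Tap1 and arrowheads the protein-coding starts. The block at the GENCODE starts is 44.8 in WT and 28.7 in KO, whereas the flanking summits are at 70.4 and 60.8 in WT and 80.4 and 72.1 in KO.

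The other immunoproteasome genes were not lower. Psmb9, at the promoter shared with Tap1, had summit pileups of 1159 in WT and 873 in KO, a relative ratio of 0.17 (0.04 to 0.30). Its second region, in a coding exon of Tap1, had 155 and 105, for a ratio of 0.02 (−0.35 to 0.39). Psmb10 had 408 and 283, for a ratio of 0.05 (−0.17 to 0.28). At its GENCODE start Psmb8 thus stood apart from both, and the interval there overlapped neither of their start regions.

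Among the activators, Psme1 and Psme2 form the interferon-inducible PA28 ring. Psme1 had summit pileups of 762 and 541, for a ratio of 0.09 (−0.08 to 0.25). The main region of Psme2, which it shares with Rnf31, a ubiquitin ligase gene, had 1126 and 670, for a ratio of −0.17 (−0.31 to −0.03). Its summit was at −505 bp from the nearest Psme2 start, and 2 further regions within the gene had 192 and 121, and 361 and 255, with ratios of −0.09 (−0.43 to 0.25) and 0.08 (−0.16 to 0.31). Psme3 had 532 and 296 at its start, for a ratio of −0.27 (−0.48 to −0.06), the second lowest at a protein-coding start. Psme4, of the PA200 activator, had 811 and 565, for a ratio of 0.06 (−0.10 to 0.22).

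The remaining intervals below the median were at the starts of Psmd3, a lid subunit, and Psmg2, a core chaperone. Psmd3 had summit pileups of 754 and 427, for a ratio of −0.24 (−0.41 to −0.07). Psmg2, with Cep76 on the other strand, had 612 and 352, for a ratio of −0.22 (−0.41 to −0.03). Over own backgrounds the intervals of all 4, Psme2 and Psme3 included, held the median, with ratios of −0.16 at Psmd3, −0.12 at Psme3, −0.09 at Psme2 and −0.07 at Psmg2. Their values were within the central 95% of promoter regions of like signal.

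Above the median, Psmd14 had the highest ratio. Its pileups were 681 and 535, for a ratio of 0.23 (0.07 to 0.40), above the central 95% for its signal, which ended at 0.21. Psma1, of the alpha ring, had 678 and 512, for a ratio of 0.18 (0.01 to 0.34), and Psmb6 had 1030 and 771, for a ratio of 0.16 (0.03 to 0.30). Over own backgrounds these intervals and that of Psmb9 held the median, with ratios of 0.08 at Psmd14 (−0.09 to 0.25), 0.05 at Psma1, 0.05 at Psmb6 and 0.06 at Psmb9. Psmg3 had a ratio of 0.18 too, with an interval of −0.10 to 0.46 that held the median, but over own backgrounds it stood at 0.41 (0.13 to 0.69). At the low end, a weak intron region of Psmb3, 7932 bp after its protein-coding start, had 61 and 32, for a ratio of −0.35 (−1.02 to 0.29), which also held it.

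Set against regions of like signal, 54 of the 58 (93.1%) lay within the central 95% of all shared promoter regions, 2 below and 2 above. Those below were the Psmd9 region near Setd1b and the start of Psmb8, and those above were Psmd14 and Psmb9. The 11 non-ATPase genes, with 12 shared regions, had a median ratio of 0.02, the 7 alpha ring regions 0.06, the 9 standard beta regions 0.04 and the 7 ATPase regions −0.03. No role of 3 or more genes had a median beyond 0.1 in either direction, and no ATPase region had an interval that left out the median.

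**Figure D4:**
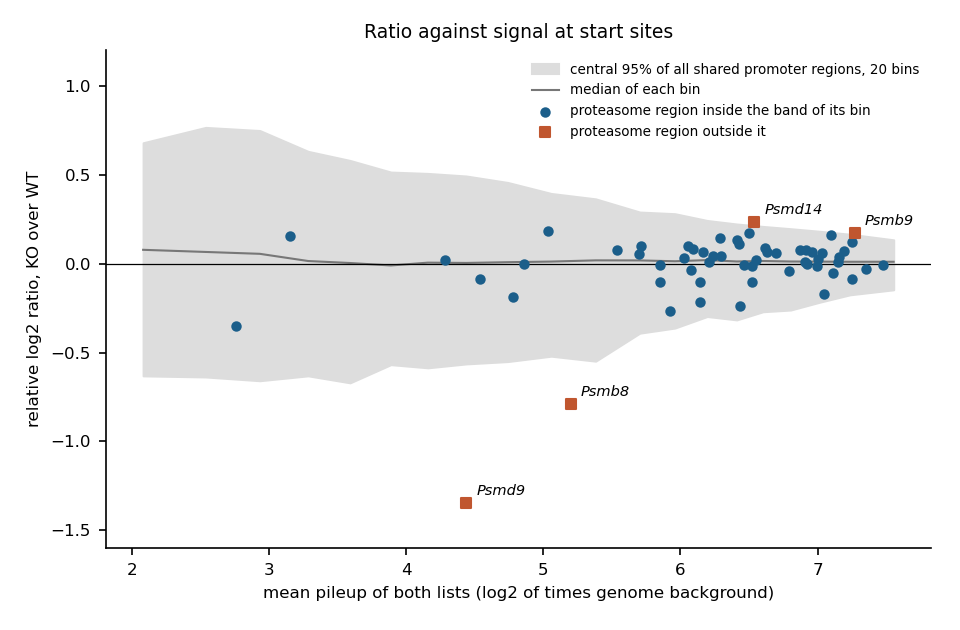
Relative log2 ratio of KO over WT (y axis) against the mean pileup of both lists in log2 of times genome background (x axis), with the grey band giving the central 95% of all 20357 shared promoter regions in 20 bins. Of 58 proteasome regions (points), 54 lie in the band, and the squares outside it are Psmd9 and Psmb8 below and Psmd14 and Psmb9 above.

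The share of promoters with a CRE was close to that of all genes. Over whole regions, 2 of 72 held one (2.78%), against 2.72% of all regions at start sites. In RefSeq windows of 250 bases before to 50 after the start, which 42 of the 50 genes had, 0 of 42 held TGACGTCA, which allows up to 8.38% (95% Wilson interval), against 2.44% of all 16433 windows. The genes without a window were Psma8, Psmb1, Psmb2, Psmb7, Psmc3, Psmd3, Psmd7 and Psmg2. The RefSeq start of Psmb8 lies 474 bp after its first protein-coding start in GENCODE, so its window leaves out the CRE shown above. The window of Psma6, chr12:55383972-55384271, lies outside its open region, chr12:55398296-55399264, and was counted all the same. Within 150 bases of the WT summit, a window chosen after the data were seen, 2 of 58 shared regions held a CRE (3.45%), against 493 of 20357 (2.42%).

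These regions were the start of Psmb8 and that of Psmb2, and their values differed. Psmb2 had summit pileups of 774 and 542, a relative ratio of 0.07 (−0.09 to 0.23), whose interval does not reach that of Psmb8. Among the 493 promoter summits with a CRE, 9 had a lower ratio than Psmb8 and 374 a lower one than Psmb2. Intervals below the median were found at 20.3% of those 493 and at 6.42% of the 19864 without a CRE. The part of the word in either value was not tested, and a match says only that these letters stand there.

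Half-sites were more frequent than in other promoters. The word TGACG, on either strand, stood in 18 of 42 windows (42.9%, 29.1 to 57.8%), against 24.5% of all windows. The summits of the shared regions gave 24 of 58 (41.4%, 29.6 to 54.2%), against 26.4%. Of those 24, 8 had a ratio below the median and 4 an interval below it, and of the 34 without a half-site 15 and 2. The shares with a half-site were thus 33.3% below and 16.7% with an interval below, against 53.8% and 12.7% of all promoter regions with one. Without a half-site they were 44.1% and 5.88%, against 43.1% and 4.63%. Those 4 included Psmb8, whose CRE holds the half-site on both strands.

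Words of other factors also stood out. The ETS word CCGGAAG was in 14 of 42 windows (33.3%, 21.0 to 48.4%), against 12.3%, among them 3 of ATPases (Psmc1, Psmc2 and Psmc6) and 6 of non-ATPase subunits (Psmd2, Psmd4, Psmd6, Psmd11, Psmd12 and Psmd13). The NRF1 consensus was in 4 (9.52%, 3.77 to 22.1%), against 1.94%: Psma2, Psma3, Psma4 and Psmc4. For both words, and for the half-site, the interval left out the share over all genes. Among windows of genes with a WT peak the ETS word stood at 35% against 17.7%, NRF1 at 10% against 2.86% and the half-site at 45% (30.7 to 60.2%) against 31.3%, an interval that holds it.

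The ARE is bound by NFE2L1, which raises proteasome genes when proteasome activity falls. It stood in 6 of 42 windows (14.3%), against 13.3%, at Psmb5, Psmb6, Psmc6, Psmd9, Psmd12 and Psme4. In windows of 500 bases before to 200 after the start it stood at 40.5% (95% Wilson interval 27 to 55.5%), against 25.8%. The interferon response word stood in 6 (14.3%, 6.72 to 27.8%), against 8.25%, and at none of the 3 inducible beta genes within this window. In the wider windows it stood at 38.1% (25 to 53.2%), against 18.4%, and at summits in 10 of 58 (17.2%, 9.64 to 28.9%), against 8.01%, both intervals leaving out the share of all. CCAAT (35.7% against 38.8%), GGGCGG (54.8% against 48.3%), CACGTG (9.52% against 8.15%), TGANTCA (4.76% against 7.11%), TGTGGTT (2.38% against 4.79%) and AAGATGGC (7.14% against 3.29%) all had intervals that held the share of all windows. The median GC content of the windows was 57.3% for proteasome genes and 57% for all. The median ratio of observed to expected CpG was higher, 0.749 against 0.601. The half-site, ETS and NRF1 words all hold a CpG, and its part in their shares was not tested. TATAAA stood in 4 of 42 windows (9.52%), against 8.60% of all.

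**Figure D5:**
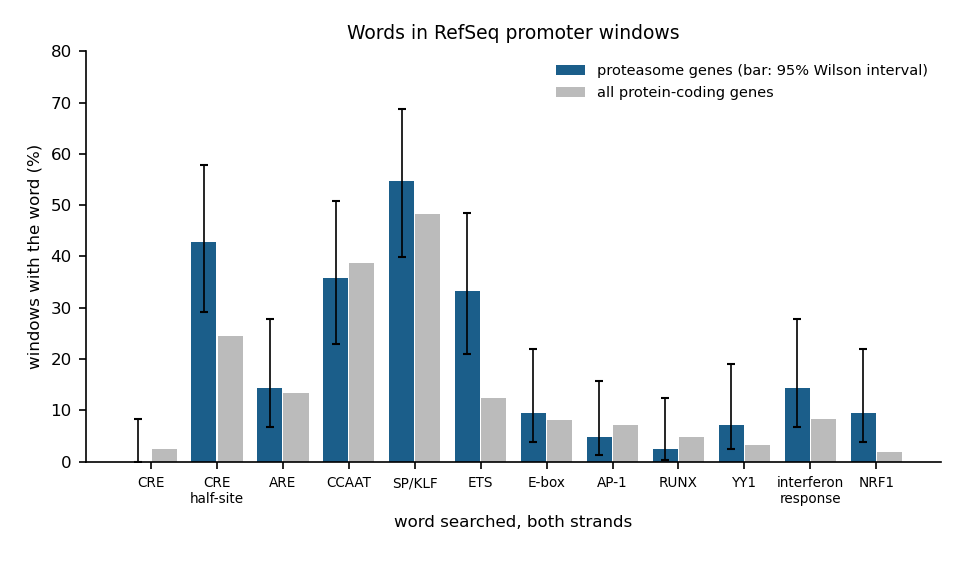
Share of RefSeq promoter windows (y axis, %) that hold each of 12 words on either strand, for 42 proteasome genes (dark, with 95% Wilson intervals) and for all 16433 protein-coding genes with a window (grey). The half-site (42.9%), ETS (33.3%) and NRF1 (9.52%) bars have intervals above the grey bars, and the CRE bar is at 0.

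Other genes of the pathway, from a list of 28 found in the annotation, all had a promoter peak in both lists. Ubb, Rps27a and Uba1, of ubiquitin and its activation, had a median of 137 times background in WT and 156 in KO, and Nfe2l1 the highest single pileup, 1695 and 1186. The pileup of the main WT peak of Zfand5 could not be recovered, so it has no ratio. At the main promoters of the other 27, 1 interval left out the median, that of Tap1 at the region it shares with Psmb9. Over their 53 shared regions the median ratio was 0.02, with 0 intervals below the median and 2 above. Subunits and assembly factors outside the symbol rule had ratios of 0.00 (−0.13 to 0.14) at Adrm1, a ubiquitin receptor, 0.16 (−0.03 to 0.36) at Sem1, and −0.20 (−0.40 to 0.00) at Pomp, the maturation factor of the core. Among antigen processing genes, Tap2, next to Psmb8, had summit pileups of 490 and 343, for a ratio of 0.07 (−0.14 to 0.27), and B2m, the light chain of MHC class I, 1333 and 964, for a ratio of 0.11 (−0.01 to 0.23).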

How the data were processed

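Peaks of Omni-ATAC-seq from splenic Tregs were read from 1 deposited list per group. The labels give 3 libraries per group, whereas the methods state sequencing in duplicate. According to the methods and the submitters' processing notes, the authors used Trim Galore for trimming and Bowtie2 for alignment, kept unique fragments of high mapping quality through SAMtools, and obtained peaks from MACS2, all without a stated version. The methods and notes name mm9, but the positions were checked as GRCm38: 62.5% of protein-coding genes had a WT peak at their annotated starts and 24.6% when the starts were moved by 100 kb.

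The authors' peak caller wrote the fold (ratio) of the summit over its background. The methods name the nolambda option, yet fold and p imply a background that differs between peaks. The deposited −log10 p and −log10 q are those of the summit, and the score the authors deposited is 10 times the latter. The summit pileup was recovered from fold and p (tolerance 0.002) for 99.9% of WT and 99.97% of KO peaks. Peaks of the lists that overlapped by at least 1 bp were joined into regions. Pileups over the genome backgrounds were compared with exact conditional binomial intervals, centred on the median of 82004 shared regions, and shares with Wilson intervals (95%).

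No test across mice was possible and no p-value was computed. Named genes were those without a peak, with a region in one list only, of the immunoproteasome, PA28 or tissue-specific subunits, among the 5 lowest or 5 highest ratios or the 3 highest or lowest pileups, or with a CRE or an interval that left out the median. Other genes named for a word, a shared promoter or the wider pathway, and Psme4, were chosen after their values were seen. The members and lists were chosen with earlier results of these data known. Scripts were tested on simulated data. Alternatives were the window, overlap, q, background, centring, summed pileups and promoter window. Ratios restricted to protein-coding starts, words among genes with a peak, and the summit windows, were chosen after seeing the data. Python 3.11.15, pandas 2.3.3 and scipy 1.17.1 were used. Some genes of the marker and pathway lists are not reported here.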

Additional observations from a re-analysis of the deposited data

How the results depend on the processing

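Of 103 alternative values, 82 moved little and 21 moved. The sign changed in 3, none of them a difference whose interval left out the share of all genes, all among genes with a WT peak: GGGCGG to −6.27 points, CACGTG to −0.11 and TGANTCA to 0.12. With −log10 q of at least 10 the WT-only regions numbered 7, and with 50% reciprocal overlap the KO-only regions numbered 7. Among regions that hold a protein-coding start site, an alternative chosen after seeing the data, there were 0 WT-only and 0 KO-only regions. Without centring the median ratio was 0.17, with 2 of 58 intervals below 0 and 30 of 58 above, against 2.201% and 32.2% of all shared promoter regions. With each peak's own background there were 2 below the median and 1 above, and with summed pileups 7 above. The region of 2-fold and 5 counting SDs (1) became 0 with own backgrounds, 0 with a window of 500 bp, 0 with starts of protein-coding transcripts only and 0 among regions holding such a start, the last 2 chosen after seeing the data. By the authors' fold the median percentile of promoter signal was 78.4 in WT and 78.1 in KO. The share of windows with a CRE, less that of all genes, was −2.98 points in windows of 500 bases before to 200 after the start and −3.28 points among genes with a WT peak, and the ARE difference was 14.7 points in the wider window. The cause of these moves was not tested, except that fewer regions enter where the start or q is restricted.

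No paired analysis was possible because each group has 1 list. For the same reason no library was left out, intervals of ratios cover counting error only, and no interval covers the spread between mice. Differences between mice, and the way libraries were joined, cannot be told apart from the genotype.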
